A study of Mus musculus with 32 samples.

Results

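The interferon response genes other than the oligoadenylate synthetases were 36 genes named by symbol, and 35 of them had a probe in the array annotation, Ifi44 being left out. These 35 genes carried 53 of the 25697 probes and were 35 of the 16593 named genes. They were taken from a list of names and not by a cut on their values, but the list was chosen with earlier results of these data known.

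Illumina bead arrays measured lung and trachea of Car6-/- mice, which lack a carbonic anhydrase released into saliva and milk, and of wild-type mice. The groups were Car6-/- trachea (6 samples), wild-type trachea (8), Car6-/- lung (6) and wild-type lung (8). All mice were C57BL/6 males aged 2 months per the labels, which describe the mutant allele no further. Mice are numbered within a genotype in the labels, which leaves it unstated whether lung and trachea of 1 number share an animal, and p-values measure the spread between these samples.

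Interferons are secreted alarm signals. Type I and type III interferons act through receptor kinases on Stat2, which with Irf9 is part of a complex that binds the interferon-stimulated response element (ISRE) of its target genes. Interferon gamma, made mainly by T and NK cells, acts through gamma-activated sites (GAS) in its target genes and through Irf1. The target genes hold their own signalling factors, sensors of viral nucleic acid, antiviral effectors, GTPases directed at intracellular microbes and chemokines that draw T cells. A low tonic interferon signal can keep some of them expressed without infection, and interferon activity was not measured here.

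The response elements themselves can be read in the promoters. RefSeq promoters (GRCm38.p6) were found for 24 of the 35 genes, and the 250 bases before the start were searched on both strands for an ISRE core (GAAA, any 2 bases, GAAA) and a GAS (TTCNNNGAA). The ISRE core was present for 11 of the 24 genes (45.8%), against 3.46% of 27025 genes with a promoter. The GAS was present for 5 of the 24 (20.8%), against 8.13% of all genes, and both were present for 2 (8.33%), against 0.459%. The genes with both were Bst2 and Igtp. The promoters below belong to the genes with the smallest p-values in the genotype comparisons that had an entry. They are printed 5′ to 3′ in the direction of transcription and end at the last base before the start, with matches in capitals.
Isg15, chr4:156200819-156201068, minus strand: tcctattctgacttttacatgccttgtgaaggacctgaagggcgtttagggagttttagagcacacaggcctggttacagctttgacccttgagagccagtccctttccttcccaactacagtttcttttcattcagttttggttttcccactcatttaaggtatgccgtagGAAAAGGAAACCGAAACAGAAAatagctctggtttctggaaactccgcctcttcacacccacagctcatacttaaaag
Bst2, chr8:71537473-71537722, minus strand: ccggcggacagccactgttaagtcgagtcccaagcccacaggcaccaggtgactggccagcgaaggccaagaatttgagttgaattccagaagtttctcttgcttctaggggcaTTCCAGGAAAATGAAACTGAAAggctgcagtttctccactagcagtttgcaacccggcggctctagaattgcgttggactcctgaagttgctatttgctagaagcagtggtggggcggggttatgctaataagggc
Ifit3, chr19:34583279-34583528, plus strand: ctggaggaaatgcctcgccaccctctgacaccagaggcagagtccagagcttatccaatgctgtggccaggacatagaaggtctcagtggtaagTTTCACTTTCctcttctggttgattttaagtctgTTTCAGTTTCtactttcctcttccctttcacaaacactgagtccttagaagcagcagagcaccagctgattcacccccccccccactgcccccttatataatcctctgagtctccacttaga
Stat2, chr10:128270248-128270497, plus strand: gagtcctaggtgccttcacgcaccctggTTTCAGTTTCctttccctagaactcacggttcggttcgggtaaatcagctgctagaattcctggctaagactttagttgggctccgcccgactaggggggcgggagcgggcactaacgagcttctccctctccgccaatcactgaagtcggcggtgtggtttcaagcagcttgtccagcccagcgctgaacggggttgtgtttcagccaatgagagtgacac
Irf9, chr14:55603735-55603984, plus strand: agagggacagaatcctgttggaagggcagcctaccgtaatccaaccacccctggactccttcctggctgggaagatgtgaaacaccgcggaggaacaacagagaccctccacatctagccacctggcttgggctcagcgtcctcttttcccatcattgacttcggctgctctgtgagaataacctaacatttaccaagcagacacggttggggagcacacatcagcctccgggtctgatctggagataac
Irf7, chr7:141266425-141266674, minus strand: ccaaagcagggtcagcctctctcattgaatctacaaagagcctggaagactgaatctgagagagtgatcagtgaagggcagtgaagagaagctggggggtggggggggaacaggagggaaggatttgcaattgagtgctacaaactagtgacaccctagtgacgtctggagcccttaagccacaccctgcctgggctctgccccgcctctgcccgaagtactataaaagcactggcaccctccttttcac
Cxcl9, chr5:92328080-92328329, minus strand: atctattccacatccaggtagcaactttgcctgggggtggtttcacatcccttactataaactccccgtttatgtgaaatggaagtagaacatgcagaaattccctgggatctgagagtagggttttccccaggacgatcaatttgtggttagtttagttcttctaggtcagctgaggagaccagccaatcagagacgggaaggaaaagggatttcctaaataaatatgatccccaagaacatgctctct

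Isg15 held 3 overlapping ISRE cores between 78 and 57 bases before the start. In Bst2 a GAS, 136 to 128 bases before the start, ran into a pair of overlapping ISRE cores. Ifit3 held 2 ISRE cores on the minus strand and Stat2 held 1, and the Irf9, Irf7 and Cxcl9 windows held neither set of letters. A match is a run of letters and not a measured binding site, and binding was not measured here.

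Of the 35 genes, 20 were detected in all 28 samples and 27 in at least 6 samples, which is the filter for testing over all groups. A gene counts as detected where the detection p-value of its brightest probe, its rank among negative control beads, was under 0.01. The 8 genes under that limit were the antiviral Ifit1 and Mx1, the sensor Ifih1, Xaf1 and Parp9, the GTPases Gbp4 and Iigp1, and the chemokine Cxcl10. Their raw signals lay between 75.8 and 125.4, near the 65.7 to 82.7 that was the lowest signal of an array. Ifih1 passed in 4 samples, all of them lung, and Cxcl10 in 3, all of them trachea. Ifit1, Mx1, Xaf1, Parp9 and Gbp4 were detected on 0 of 32 arrays. Car6 was not detected on any of the 32 arrays either (the lowest detection p-value was 0.12), so its probe does not check the genotype labels.

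Some tracheal samples stood apart from the others in the level of cell type markers. The summed level of the 8 alveolar type 2 cell markers was 18315 and 23311 in Car6-/- tracheae 1 and 2 and 1959 to 5137 in the other 4 Car6-/- tracheae, against 2535 to 4743 in wild-type tracheae. The summed endothelial markers were 5593 and 5462 in these same 2 samples, 2014 to 2643 in the others, and 1811 to 2638 in wild-type tracheae. The B cell sums were 1280 and 7050 in Car6-/- tracheae 1 and 2 and 234 to 686 in the other 4, against 206 to 279 in wild-type tracheae. Sums of alveolar macrophage and monocyte markers were 1396 and 3313 in these 2 samples and 466 to 666 in the others, against 412 to 667 in wild-type tracheae. The NK cell sums were 511 to 886 in Car6-/- tracheae 1, 2, 5 and 7 and 273 to 287 in the other 2, while wild-type tracheae had 187 to 445. Skeletal muscle markers ran the other way, at 1302 and 16069 in Car6-/- tracheae 1 and 2 and 26847 to 35899 in the others, against 37869 to 64797 in wild-type tracheae. Basal epithelial sums were 332, 474 and 910 in Car6-/- tracheae 1, 2 and 6 and 1573 to 7041 in the others, against 1148 to 6926 in wild-type tracheae. The thyroid sum was 140 to 157 in Car6-/- tracheae 1, 2 and 7 and 8726 in Car6-/- trachea 6, against 14980 to 18086 in wild-type tracheae, and the adipocyte sum was 4450 to 6226 in Car6-/- tracheae 1, 2, 6 and 7, against 1524 to 2507 in wild-type tracheae. Wild-type tracheae did not detect the alveolar Sftpb and Lamp3 or the B cell markers Ms4a1, Cd22, Pax5 and Fcrla, and the part of these cells in the tracheal results was not tested. In bulk tissue, a change in how many cells of a type a sample holds and a change of RNA per cell cannot be told apart.

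The tissues themselves differed for most of these genes. In wild-type mice, 27 of the genes could be tested, and with limma 21 were lower and 1 was higher in trachea than in lung at an adjusted p under 0.05. Of all 10015 genes tested, 68.3% were called, with 38.5% lower and 29.8% higher. The median change of the 27 was -0.66 on the log2 scale, against -0.09 over all genes. For 15 of them every wild-type trachea lay below every wild-type lung, a pattern found for 21.2% of all genes. Levels are given as normalized log2 intensity, and a change is the difference on that scale with its standard error.

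**Figure D1:**
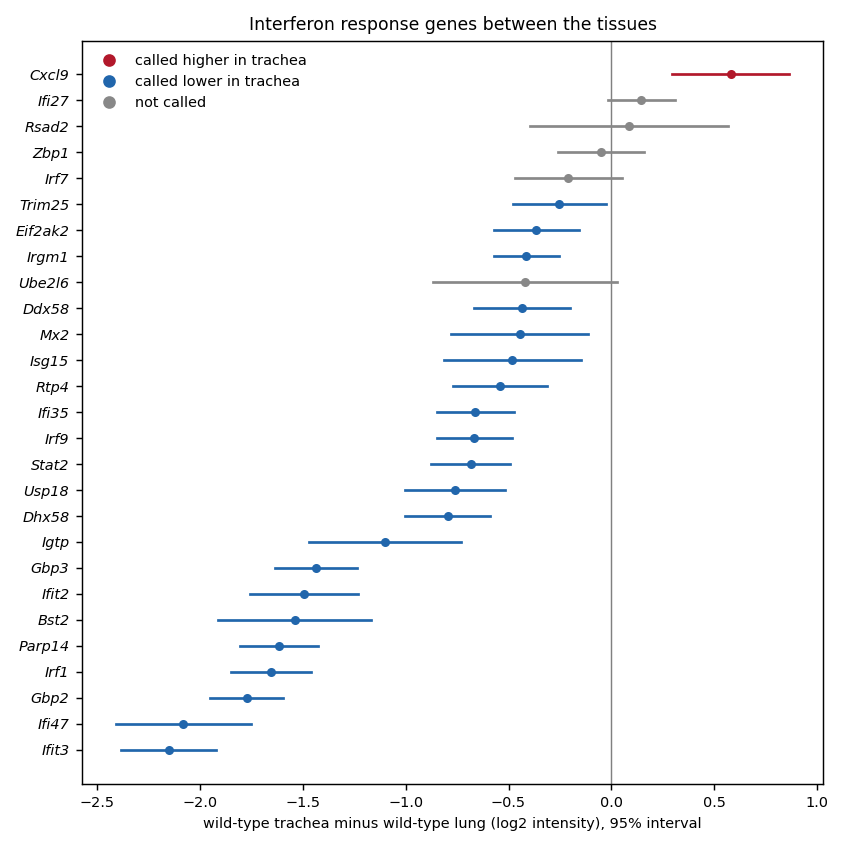
Change of each of the 27 tested genes between wild-type trachea and wild-type lung (log2 intensity, points) with its 95% interval (bars). Colours mark the 1 gene called higher, the 21 called lower and the 5 not called, and the changes run between -2.15 for Ifit3 and 0.58 for Cxcl9.

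Among the antiviral effectors, Ifit3, which belongs to a family that binds foreign RNA, had 7.38, 7.63 and 8.20 (lowest, median and highest) in wild-type tracheae, against 9.62, 9.88 and 10.01 in wild-type lungs. The groups lay far apart, and the change was -2.15 ± 0.11 or 4.44-fold lower (adjusted p = 7.61e-12). Its 3 probes gave -2.15 to -1.49. Ifit2, of the same family, fell by 1.49 (adjusted p = 6e-09). Bst2, or tetherin, which holds budding virus at the cell surface, fell by 1.54 (adjusted p = 4.52e-07). Mx2, a dynamin-like GTPase, fell by 0.45 (adjusted p = 0.0189), but 1 of 8 tracheae detected it and 5 of 8 lungs, so it passed the filter largely through lung. Rsad2, or viperin, had a change of 0.09 ± 0.23 (adjusted p = 0.748).

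All 5 tested interferon-induced GTPases, which attack the vacuoles of intracellular microbes, were lower in trachea, with a median of -1.44. Ifi47 had 5.85, 6.25 and 6.90 in wild-type tracheae, against 8.22, 8.43 and 8.68 in wild-type lungs. Its highest trachea lay well under its lowest lung, with a change of -2.08 ± 0.16 (4.23-fold, adjusted p = 1.61e-09). Gbp2, a guanylate-binding protein, had 8.30, 8.43 and 8.79 in wild-type tracheae, against 9.98, 10.27 and 10.46 in wild-type lungs, a change of -1.77 ± 0.08 (3.42-fold, adjusted p = 2.61e-12). A probe of Gbp2 that is dimmer gave -0.79, the same direction at a smaller size. It was detected in 7 of the wild-type samples of both tissues, with a mean level of 4.90, so the size of its change is uncertain. Gbp3 fell by 1.44, Igtp by 1.10 and Irgm1 by 0.41, each without overlap between the tissues.

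Of the 4 tested transcription factors, 3 were lower in trachea. Irf1, which carries the interferon gamma signal to a further set of genes, had 9.22, 9.64 and 9.95 in wild-type tracheae, against 11.13, 11.32 and 11.47 in wild-type lungs. The groups did not overlap, with a change of -1.65 ± 0.09 (3.14-fold, adjusted p = 2.69e-11), and its 5 probes gave -1.65 to -0.94. The probe at -0.94 was detected in 8 wild-type samples, all of them lungs, so it passed the filter through lung. The other probes, detected in every wild-type sample, gave -1.65 to -1.28. Stat2 and Irf9, the partners of the ISRE-binding complex, fell by 0.68 and 0.67, also without overlap (adjusted p = 3.33e-06 and 2.21e-06). Irf7, which drives interferon alpha genes, had a change of -0.21 ± 0.12 (adjusted p = 0.14).

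Parp14, an ADP-ribosyltransferase, had 7.25, 7.66 and 7.94 in wild-type tracheae, against 9.03, 9.22 and 9.41 in wild-type lungs, again without overlap. Its change was -1.62 ± 0.09 (3.07-fold, adjusted p = 2.65e-11). Ifi35 fell by 0.66 and Rtp4 by 0.54, the second of these detected in 1 of 8 tracheae and 7 of 8 lungs. Ifi27, a small membrane protein of an interferon-inducible family, had a change of 0.14 ± 0.08 (adjusted p = 0.104). Its other probe gave 0.35.

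The sensors and the ISG15 system had smaller changes, at most 0.80 in size. Dhx58, a relative of RIG-I, fell by 0.80, Ddx58, which is RIG-I itself, by 0.44, and Eif2ak2, the double-stranded RNA kinase PKR, by 0.37. Zbp1, a sensor of Z-form nucleic acid, had a change of -0.05 ± 0.10 (adjusted p = 0.656). Isg15, the ubiquitin-like protein joined to targets during the response, fell by 0.48 (adjusted p = 0.0118), and Usp18, the enzyme that takes it off again, fell by 0.76 (adjusted p = 1.27e-05). Ube2l6, its conjugating enzyme, had -0.42 ± 0.21 (adjusted p = 0.0873). Trim25, a ligase that activates RIG-I, fell by 0.25 (adjusted p = 0.0444) and was detected in 1 of 8 tracheae and 5 of 8 lungs.

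Cxcl9, a chemokine that draws T cells through Cxcr3, was the only tested gene called higher in trachea. It had 5.11, 5.55 and 6.01 in wild-type tracheae, against 4.74, 4.90 and 5.43 in wild-type lungs. The ranges overlapped, 4 of 8 tracheae lying above all lungs, and the change was 0.58 ± 0.14 (1.49-fold, adjusted p = 0.000999), or 0.20 with no background correction. It was detected in 8 of 8 tracheae and 2 of 8 lungs, so it passed the filter through trachea, and no value was left where detection in every sample was asked for.

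**Figure D2:**
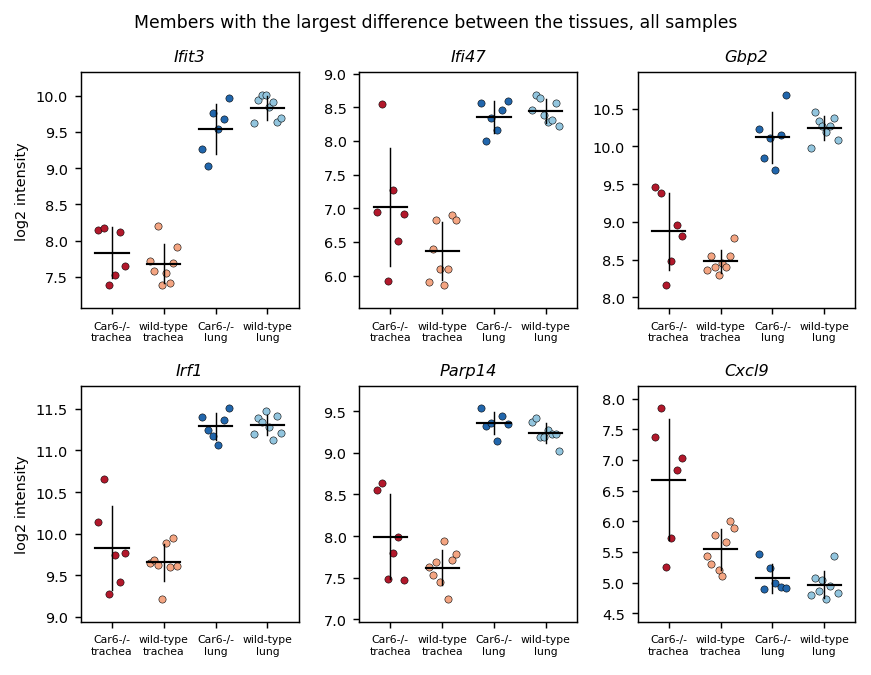
Normalized log2 intensity of the 5 genes with the largest decrease and the 1 gene called higher in wild-type trachea against wild-type lung, by sample in Car6-/- trachea, wild-type trachea, Car6-/- lung and wild-type lung. Lines are means and bars are SD (n = 6, 8, 6 and 8); the tracheae of Ifit3, Gbp2, Irf1 and Parp14 lie below all lungs, while the highest Car6-/- trachea of Ifi47, at 8.54, reaches the lungs.

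Cell type markers differed between these tissues as well. The summed alveolar type 2 markers were 2535 to 4743 in wild-type tracheae, against 49971 to 52409 in wild-type lungs, and the endothelial sums were 1811 to 2638, against 15851 to 17975. The sums of alveolar macrophage and monocyte markers were 412 to 667, against 3607 to 5985. Other sums were higher in most or all tracheae. The T cell markers had 192 to 3749 in wild-type tracheae, against 390 to 505 in wild-type lungs. Wild-type tracheae 1 and 5, at 192 and 303, lay below all of these lungs. Of 6 tested T cell markers, 5 were called higher and 1 lower, against 29.8% and 38.5% of all genes. Skeletal muscle had 37869 to 64797, against 232 to 1635, and thyroid had 14980 to 18086, against 154 to 1388. The part of any of these cells in the tissue differences was not tested.

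In lung, Car6-/- and wild-type mice differed at the threshold for 0 of the 26 genes tested with limma. Over all 9414 genes, 0.0212% were called. The changes split evenly, 13 above and 13 below 0, against 48.7% of all genes above 0, with a median of 0.01 against -0.00 over all genes. At an unadjusted p under 0.05, 3 genes were higher and 1 was lower, where 4.81% and 4.59% of all genes were. For 0 of the 26 genes did all Car6-/- lungs lie outside the wild-type range, which 0.212% of all genes did.

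Bst2 had the smallest p. It had 8.62, 9.28 and 9.48 in Car6-/- lungs, against 8.14, 8.74 and 9.15 in wild-type lungs. Car6-/- lungs 1, 2, 4 and 7 lay above every wild-type lung and Car6-/- lung 5 lay among the lower wild-type lungs. The change was 0.54 ± 0.16 (1.46-fold, adjusted p = 0.234). Bst2 marks plasmacytoid dendritic cells in unstimulated mice. Siglech, which defines these cells, had 5.81, 6.08 and 6.36 in Car6-/- lungs, against 5.32, 6.21 and 6.66 in wild-type lungs. Ccr9 and Pacsin1 were not detected in either group. The sum of the 6 markers listed for these cells was 807 to 1711 in Car6-/- lungs, against 691 to 3011 in wild-type lungs. The part of these cells in the Bst2 values was not tested.

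Isg15 had 7.81, 8.19 and 8.47 in Car6-/- lungs, against 7.54, 7.74 and 8.13 in wild-type lungs. Car6-/- lungs 1, 2 and 4 lay above all wild-type lungs, and all 6 lay above the wild-type mean. The change was 0.36 ± 0.11 (1.28-fold, adjusted p = 0.255). Irf7 had 5.51, 5.73 and 6.13 in Car6-/- lungs, against 5.39, 5.57 and 5.89 in wild-type lungs, with 2 of 6 above all wild-type lungs and a change of 0.22 ± 0.10 (adjusted p = 0.509), or 0.09 with no background correction.

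Ifit3 had the opposite sign, with 9.03, 9.61 and 9.97 in Car6-/- lungs, against 9.62, 9.88 and 10.01 in wild-type lungs. Car6-/- lungs 1, 2 and 5 lay below all wild-type lungs, and the change was -0.29 ± 0.13 (adjusted p = 0.473), with all 3 probes between -0.29 and -0.18, and -0.19 without Car6-/- lung 2. So Car6-/- lungs 1 and 2, both high for Bst2 and Isg15, were the lowest for Ifit3. Car6-/- lung 4, also high for Bst2 and Isg15, had an Ifit3 of 9.76, within the wild-type range. Car6-/- lungs 1 and 2 also had the lowest B cell sums, at 660 and 596, against 910 to 1281 in wild-type lungs. The part of this in the values was not tested.

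Gbp3 had 8.57, 8.79 and 9.07 in Car6-/- lungs, against 8.73, 9.02 and 9.21 in wild-type lungs, largely overlapping, with a change of -0.18 ± 0.09 that did not pass the threshold. Rtp4, a chaperone-like protein induced by interferon, had 5.08, 5.45 and 5.74 in Car6-/- lungs, against 4.99, 5.11 and 5.61 in wild-type lungs, and a change of 0.19 ± 0.11 (adjusted p = 0.628), or 0.07 with no background correction. Usp18 had 9.17, 9.22 and 9.38 in Car6-/- lungs, against 8.96, 9.15 and 9.32 in wild-type lungs, with all 6 above the wild-type mean but 1 above the wild-type range, and a change of 0.11 ± 0.07 (adjusted p = 0.655). Parp14 had 9.14, 9.35 and 9.53 in Car6-/- lungs, against 9.03, 9.22 and 9.41 in wild-type lungs, overlapping for 4 of 6, with 0.11 ± 0.07 (adjusted p = 0.678). The other 18 genes lay between -0.13 for Gbp2 and 0.15 for Igtp, with adjusted p-values up to 0.983. Of the 5 GTPases 4 were below 0, and the 4 other interferon-induced proteins lay between 0.04 and 0.19. For Irf1 the probes disagreed in sign, from -0.01 to 0.11 over 5 probes.

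**Figure D3:**
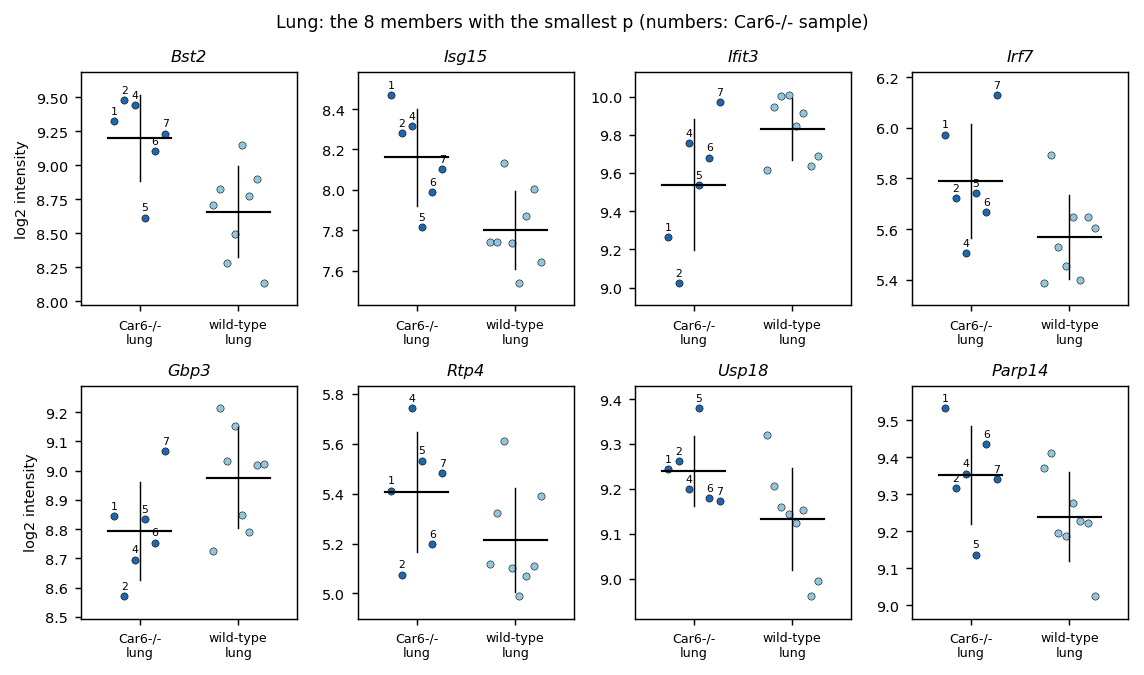
Normalized log2 intensity of the 8 genes with the smallest p in lung, by sample in Car6-/- lung (n = 6, numbered) and wild-type lung (n = 8), with means (lines) and SD (bars). Bst2 reaches 9.48 in Car6-/- lung 2, above the highest wild-type lung at 9.15, while the same sample has the lowest Ifit3 at 9.03.

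In trachea, the changes of these genes leaned to 1 side without any of them passing the threshold. Of the 24 genes tested with limma, 0 were called, and 0% of all 9733 genes were. The change was above 0 for 23 of 24 genes (95.8%), against 56.1% of all genes, and the median was 0.33, against 0.04 over all genes. At an unadjusted p under 0.05, 9 genes were higher and 0 lower, where 9.31% of all genes were higher and 7.86% lower. No gene had all Car6-/- tracheae outside the wild-type range, which 0.236% of all genes did. The lean was not shared by all samples. Car6-/- tracheae 1, 2 and 6 lay above the wild-type mean by a median of 0.55, 0.60 and 0.46 over the 24 genes, and tracheae 5 and 7 by 0.16 each. Car6-/- trachea 4 lay at -0.16 and was the lowest of its group for 15 of the 24 genes. Car6-/- tracheae 1 and 2 were also left out, for their alveolar, endothelial and B cell sums, after the data were seen. The median change was then 0.17, with 0 genes called. These samples also have the 2 highest medians of their group for these genes, so a fall follows from the choice, here and below.

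Ifi27 had the smallest p. It had 11.80, 12.80 and 13.13 in Car6-/- tracheae, against 11.71, 11.91 and 12.09 in wild-type tracheae. All Car6-/- tracheae other than sample 4 lay above every wild-type trachea. The change was 0.76 ± 0.18 (1.7-fold, adjusted p = 0.15), and its other probe gave 0.64. These 5 Car6-/- tracheae also lay above the highest lung of either genotype, at 11.95, as did 3 of 8 wild-type tracheae. Without Car6-/- trachea 4, the lowest, the change was 0.93 (adjusted p = 0.015). Without Car6-/- tracheae 1, 2 and 6, which include the highest values, it was 0.44. The rise and the fall follow from the choice of samples.

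Cxcl9 had the largest change. It had 5.26, 6.94 and 7.84 in Car6-/- tracheae, against 5.11, 5.55 and 6.01 in wild-type tracheae. Samples 1, 2, 6 and 7 lay above all wild-type tracheae, while 4 and 5 lay among them. The change was 1.13 ± 0.34 (2.19-fold, adjusted p = 0.151), or 0.61 with no background correction and 0.58 in the authors' deposited values. Here too 5 of 6 Car6-/- tracheae, against 4 of 8 wild-type tracheae, lay above every lung, whose highest value was 5.47. The T cell sums were 1258, 3670, 299 and 3816 in Car6-/- tracheae 1, 2, 6 and 7, with 415 in trachea 4 and 4820 in trachea 5, while wild-type tracheae had 192 to 3749. The part of T cells in Cxcl9 was not tested. Without Car6-/- trachea 4, the lowest, the change was 1.41 (adjusted p = 0.022). Without Car6-/- tracheae 1 and 2, the highest, it was 0.67 (adjusted p = 0.695). The rise and the fall follow from the choice of samples.

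Stat2 had 5.72, 6.05 and 6.16 in Car6-/- tracheae, against 5.31, 5.55 and 5.90 in wild-type tracheae, with samples 1, 2, 5 and 6 above all wild-type tracheae. The change was 0.38 ± 0.11 (1.3-fold, adjusted p = 0.15), or 0.16 with no background correction and 0.15 in the authors' deposited values. Irf9, its partner, had 8.13, 8.36 and 8.78 in Car6-/- tracheae, against 7.84, 8.08 and 8.29 in wild-type tracheae, with samples 1, 2 and 6 clear of the wild-type range and sample 5 level with its top. The change was 0.35 ± 0.13 (1.27-fold, adjusted p = 0.201), or 0.19 without Car6-/- tracheae 1 and 2. For both genes all 6 Car6-/- tracheae lay above the wild-type mean and below the highest lung.

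Bst2 had 7.19, 7.74 and 8.08 in Car6-/- tracheae, against 6.48, 7.28 and 7.55 in wild-type tracheae, with samples 1, 2, 6 and 7 above all wild-type tracheae. The change was 0.54 ± 0.20 (adjusted p = 0.202), or 0.36 in the authors' deposited values. Ube2l6 had 5.92, 6.51 and 6.92 in Car6-/- tracheae, against 5.55, 5.81 and 6.98 in wild-type tracheae. Its highest value of all tracheae came from wild-type trachea 3, and the change was 0.54 ± 0.21 (adjusted p = 0.219), or 0.26 with no background correction and 0.25 in the authors' deposited values.

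Gbp3 had 7.23, 8.08 and 8.74 in Car6-/- tracheae, against 7.32, 7.51 and 7.99 in wild-type tracheae. Samples 1, 2, 6 and 7 lay above all wild-type tracheae and sample 4 below them all, with a change of 0.48 ± 0.20 (adjusted p = 0.252). Igtp showed the same arrangement, with 7.16, 8.40 and 8.94 in Car6-/- tracheae, against 7.21, 7.54 and 8.27 in wild-type tracheae, and a change of 0.58 ± 0.26 (adjusted p = 0.265). Without Car6-/- trachea 4, Stat2, Gbp3 and Igtp passed the threshold as well (adjusted p = 0.0392, 0.0462 and 0.0384), and so did 370 genes of the whole array as higher and 322 as lower. Trachea 4 is the lowest of its group for Stat2, Gbp3 and Igtp, so larger changes follow from the choice. Without Car6-/- tracheae 1 and 2 the changes were 0.19 for Gbp3 and 0.34 for Igtp.

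**Figure D4:**
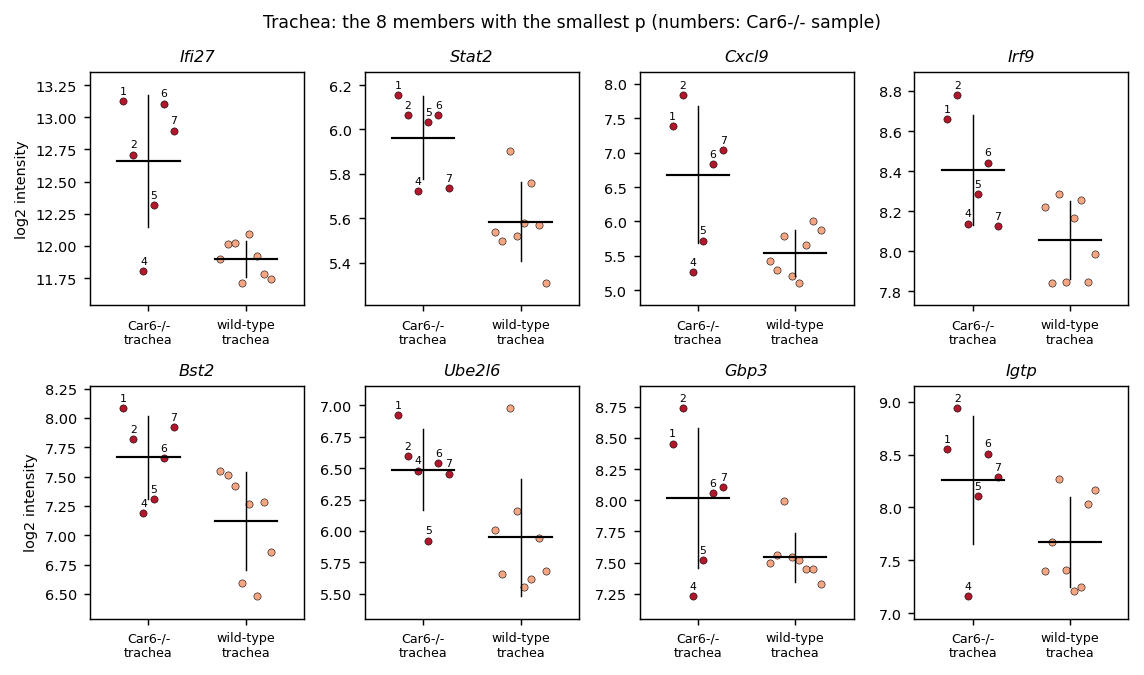
Normalized log2 intensity of the 8 genes with the smallest p in trachea, by sample in Car6-/- trachea (n = 6, numbered) and wild-type trachea (n = 8), with means (lines) and SD (bars). For Ifi27 and Cxcl9 the Car6-/- tracheae span 11.80 to 13.13 and 5.26 to 7.84, and sample 4 is at the lower end.

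Of the remaining GTPases, Gbp2 had a change of 0.40 ± 0.18, Ifi47 of 0.65 ± 0.33 and Irgm1 of 0.09 ± 0.12. The highest Ifi47, at 8.54, came from Car6-/- trachea 2, against 6.90 in the highest wild-type trachea. Sensors gave 0.29 ± 0.14 for Dhx58, 0.11 ± 0.15 for Ddx58, 0.01 ± 0.14 for Eif2ak2 and -0.10 ± 0.12 for Zbp1, the only gene of the 24 below 0. In the ISG15 system, Usp18 had 0.32 ± 0.17 and Isg15 0.25 ± 0.22, both overlapping with wild type. Parp14 had 0.37 ± 0.19, Rsad2 0.34 ± 0.25, Irf1 0.18 ± 0.19, Irf7 0.13 ± 0.17 and Ifi35 0.12 ± 0.13. Ifit3 had 0.15 ± 0.16, with its 3 probes between -0.12 and 0.15, and Ifit2 had 0.03 ± 0.21. The adjusted p-values of these genes ran up to 0.985.

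**Figure D5:**
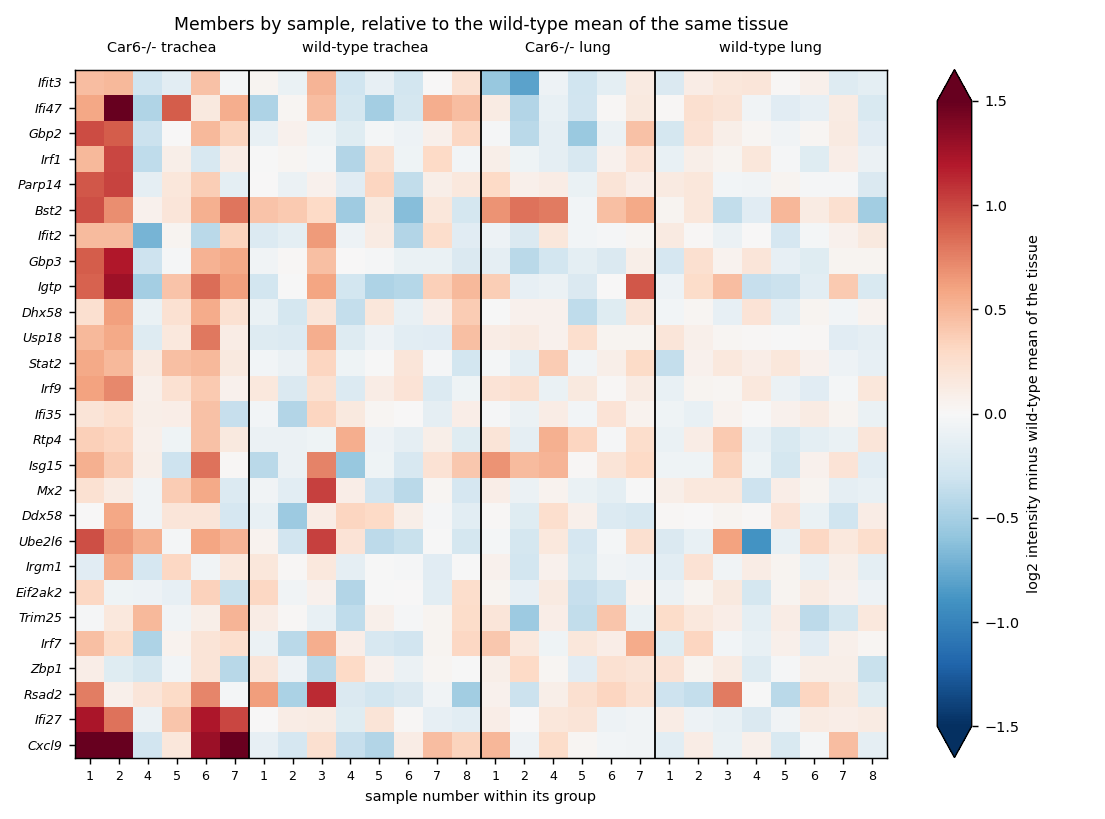
Difference of every sample (columns, numbered within the group) from the wild-type mean of its tissue (colour, log2 intensity) for the 27 genes tested over all groups (rows). Car6-/- tracheae 1, 2 and 6 are red for most genes (medians of 0.55, 0.60 and 0.46 over the 24 genes tested in trachea), Car6-/- trachea 4 is mostly pale or blue (median -0.16), and wild-type trachea 3 is the reddest wild-type trachea (median 0.31).

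The genes also varied within the groups. The SD over samples had a median of 0.353 in Car6-/- tracheae and 0.258 in wild-type tracheae, and was larger in Car6-/- tracheae for 19 of 24 genes. Over all genes these medians were 0.332 and 0.255, and 71.5% were more variable in Car6-/- tracheae. In lung the medians were 0.199 in Car6-/- and 0.164 in wild-type samples, with 17 of 26 genes more variable in Car6-/- lungs, against 51.3% of all genes. Wild-type trachea 3 was the highest wild-type trachea for 12 of the 24 genes, among them Stat2, Irf9, Isg15, Usp18, Rsad2 and Irf7, and it also had the highest neutrophil sum of the wild-type tracheae, 2712 against 213 to 835 in the other 7. In Car6-/- tracheae 1 and 2 the neutrophil sums were 2189 and 3073. The part of these cells in the values was not tested.

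The difference between the genotype effects of the tissues was tested in a model of all 4 groups. With limma 0 of 27 genes were called, and 0% of all 10529 genes. The effect in trachea exceeded that in lung for 24 of the 27, with a median difference of 0.23, against 56.3% and 0.04 over all genes, and 7 genes had an unadjusted p under 0.05, all higher, where 7.83% of all genes were. Ifi27 had a difference of 0.71 ± 0.20 (adjusted p = 0.179), with 0.76 in trachea and 0.06 in lung. Gbp3 had 0.66 ± 0.23 (adjusted p = 0.211), with 0.48 in trachea and -0.18 in lung. Cxcl9 had 1.03 ± 0.37 (adjusted p = 0.224) and Gbp2 0.53 ± 0.23 (adjusted p = 0.3). Cxcl9 was not tested in lung alone, since too few lungs passed the detection limit (3 Car6-/- and 2 wild-type samples). Its mean level was 5.07 in Car6-/- lungs and 4.97 in wild-type lungs. Cxcl9 thus passed the filter of the 4-group model through trachea, and the lung part of its difference is uncertain. Bst2 had the same change in either tissue, 0.54, and a difference of 0.00 ± 0.27. Without Car6-/- tracheae 1 and 2 the median difference was 0.13, and those of Gbp3, Cxcl9 and Gbp2 were 0.37, 0.56 and 0.25. The difference of Ifi27 was 0.39 without Car6-/- tracheae 1, 2 and 6.

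Of the 23 genes tested in both tissues, 11 were above 0 in both, 11 were below 0 in lung and above 0 in trachea, and 1, Zbp1, was above 0 in lung and below 0 in trachea. The tissue comparison and the tracheal genotype comparison share the wild-type tracheae, so their values were not set against each other.

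The wider pathway was described from lists of named genes. Of 10 interferon genes 8 were on the array, and all 8, with Ifnb1, Ifna1 and Ifng among them, were detected in 0 samples. Of 9 receptor chains and kinases 8 were tested, and in wild-type mice 7 of them were lower in trachea than in lung, where 38.5% of all genes were. The largest decreases were those of the type I receptor chain Ifnar2 (-1.29 ± 0.11), the interferon lambda receptor Ifnlr1 (-1.23 ± 0.09) and the interferon gamma receptor Ifngr1 (-1.18 ± 0.09). Jak2 had -0.02 ± 0.10. In the genotype comparisons 0 of the 8 were called. Ifngr1 had 7.26, 7.92 and 8.56 in Car6-/- tracheae, against 7.06, 7.25 and 7.68 in wild-type tracheae, and Ifnar2 had 5.55, 6.32 and 7.00 in Car6-/- tracheae, against 5.43, 5.96 and 6.17 in wild-type tracheae. The changes were 0.60 ± 0.16 (adjusted p = 0.15) and 0.55 ± 0.20 (adjusted p = 0.201). In lung Jak2 had -0.24 ± 0.09, Ifnlr1 -0.19 ± 0.07 and Ifnar2 0.21 ± 0.09.

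Among 13 tested regulators of interferon production and feedback, 8 were lower and 2 higher in wild-type trachea than in wild-type lung, against 38.5% and 29.8% of all genes. Nlrc5, the activator of MHC class I genes, had -1.49 ± 0.11 and passed the filter through lung, being detected in 2 of 8 tracheae and 8 of 8 lungs, and Irf8 had -1.25 ± 0.13. Between genotypes 0 were called, and Nlrc5 gave 0.86 ± 0.28 in trachea (adjusted p = 0.168), with 4.48, 5.65 and 7.02 in Car6-/- tracheae, against 4.61, 4.68 and 5.29 in wild-type tracheae. It was detected in 5 of 6 Car6-/- tracheae, against 2 of 8 wild-type tracheae. A list of other interferon-induced genes had 29 lower and 2 higher of 34 tested between the tissues, against the same 38.5% and 29.8%. Some of these passed the filter through lung. Gbp5, Tnfsf10 and Slfn1 were each detected in 0 of 8 wild-type tracheae and 8 of 8 wild-type lungs. The largest decreases were those of the chemokine Ccl5 (-2.64 ± 0.32), the guanylate-binding protein Gbp7 (-1.84 ± 0.14) and the nucleotide hydrolase Samhd1 (-1.71 ± 0.10). Between genotypes it had 0 called of 35 in lung and 0 of 31 in trachea, with medians of 0.02 and 0.29. In lung its smallest p belonged to Sp100 (0.32 ± 0.11, adjusted p = 0.325), and in trachea Helz2 had 0.52 ± 0.20, Ifitm3 0.29 ± 0.12 and Tor3a -0.35 ± 0.14.

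The oligoadenylate synthetases, which make the activator of the antiviral RNase L, cross this set of genes. Oas2 was called in lung, with 5.98, 6.26 and 6.41 in Car6-/- lungs, against 5.44, 5.74 and 5.86 in wild-type lungs (change 0.51 ± 0.08, adjusted p = 0.036), and in trachea its change was 0.57 ± 0.22 (adjusted p = 0.212). In lung 1 of 4 tested synthetases was called, against 0.0212% of all genes, and Oas1g had 0.43 ± 0.10 (adjusted p = 0.116), Oasl1 0.17 ± 0.10 and Oasl2 -0.07 ± 0.08. The Oas2 call was lost in 15 of 24 alternative settings, with adjusted p-values up to 0.287 and changes of 0.24 to 0.56.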

How the data were processed

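The 28 samples were measured on 32 bead arrays, 4 of them repeat arrays that were averaged with the other array of their sample. The authors deposited probe intensity on the linear scale, not background-subtracted, with a detection p-value for each, per the file headers. The authors also deposited log2 values, which on recomputing equal log2 intensity quantile-normalized within each tissue (100% within 0.006, column medians 6.68 to 6.71). The scanner and bead summary were not stated. An array detected 11735 to 13139 probes, and the number of samples in a group limits the precision.

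Here, intensities were background-corrected with limma 3.58.1 in R 4.3.3 (nec with detection p-values, offset 16), quantile-normalized over all arrays and put on the log2 scale. Of the probes, 23978 had 1 gene symbol, 0 had several and 1719 had none. The RefSeq table, used for current names, held the gene number of 23962 probes. The brightest probe stood for a gene. A gene was tested where at least 6 of the samples compared had a detection p under 0.01. Linear models (lmFit, eBayes) were adjusted by Benjamini-Hochberg over all genes tested, and called at 0.05. The procedure was tested on simulated data.

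All 36 genes are accounted for. Values by sample are given for the 8 smallest p-values of each genotype comparison, effects for the 4 smallest of the difference, and values for the 5 largest called changes per direction between tissues. Pathway genes named have the 3 smallest p-values of their list between genotypes. Pathway genes named between tissues, and Bst2 in the difference, were chosen after their values were seen. The genes, lists and rules were chosen with earlier results of these data known. Alternatives were no background correction, offset 50, median scaling, the authors' table, first arrays only, other filters, mean of probes, array weights, replicate block and leaving out samples.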

Additional observations from a re-analysis of the deposited data

Results flagged for a closer look

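In each group the highest and lowest sample of each gene tested was set against the others by Dixon's ratio at the 95% level. Of 100 sets, 2 (2%) held a sample apart, where chance gives about 1 in 20. Both were wild-type trachea 3. Its Ube2l6 value was 6.98, with the nearest other wild-type trachea at 6.16 and the lowest at 5.55. Its Gbp3 value was 7.99, with the nearest at 7.56 and the lowest at 7.32.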

How the results depend on the processing

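The genotype counts in lung stayed at 0 of the tested genes under all 10 alternatives and 14 leave-one-out fits, with medians of -0.01 to 0.08. In trachea, 0 genes were called under 12 alternatives, and leaving out each sample gave 0 to 5 higher, the 5 (Ifi27, Stat2, Cxcl9, Gbp3, Igtp) without Car6-/- trachea 4. That sample is the lowest of its group for 15 of the 24 genes, so that larger changes follow from leaving it out. The median, 0.33, ran from 0.25 to 0.39 with each sample left out and was 0.17 without Car6-/- tracheae 1 and 2. It was 0.0489 without Car6-/- tracheae 1, 2 and 6. Both of these choices leave out the highest samples of their group for these genes, so that a fall follows from the choice. For the difference between tissues, array weights gave 1 call (Ifi27, adjusted p = 0.0463, range over alternatives 0.0463 to 0.893). Leaving out samples gave 0 to 4, with 4 without Car6-/- trachea 4 and 1 without Car6-/- trachea 5. The median, 0.23, was 0.13 without Car6-/- tracheae 1 and 2 and 0.0305 without 1, 2 and 6. Between the tissues 16 to 22 genes were called lower. The median of -0.66 was -0.33 with no background correction, -0.44 with offset 50, -0.44 with no filter on dim probes and -0.54 with the mean of all detected probes. Genes called higher were 0 with detection in every sample, where Cxcl9 was not tested, and 2 with the mean of probes. Other causes were not tested. Correlations of same-numbered samples cannot settle whether they share an animal, since tissues of 1 animal need not correlate. Between lung and trachea their medians were 0.01 in Car6-/- and 0.03 in wild-type mice. Between the genotypes, which are different mice, the medians were -0.18 in lung and 0.15 in trachea, with a highest tracheal pair of 0.55. With the replicate block the medians were 0.04 in lung, 0.40 in trachea, 0.23 for the difference and -0.66 between the tissues, and no call of the genes changed. In lung it lost the Oas2 call. Over all genes, 2 higher and 0 lower calls in lung became 28 and 23 without Car6-/- lung 7 and 0 higher without Car6-/- lung 1. In trachea 0 became 370 higher and 322 lower without Car6-/- trachea 4, and for the difference 377 and 295. The difference had 123 and 95 without Car6-/- trachea 5 and 44 and 29 with array weights. Of the genes recomputed, none changed sign, while the lung median, 0.01, fell below 0 without Car6-/- lung 6 or 7, to -0.01 at the lowest.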
